A study of Mus musculus with 7 samples.

Results

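The inner root sheath keratins are 7 genes, Krt25, Krt26, Krt27 and Krt28 of the acidic (type I) keratins and Krt71, Krt72 and Krt73 of the basic (type II) keratins. They were taken by name from 19937 genes, each gene by the probe set that names it alone and has the highest mean over all arrays, and each of the 7 had 1 such probe set and 0 that name it with another gene. Expression came from 7 Mouse Gene 1.0 ST arrays (Affymetrix), hybridised with RNA of tissue from mice of a mixed C57BL/6 and 129 background. Iqgap1 knockout (KO) mice gave 2 arrays at day 6 and 2 at day 0 of topical 4OHT (4-hydroxytamoxifen, a ligand that switches on tamoxifen-dependent proteins), and wild-type (WT) mice gave 2 arrays at day 6 and 1 at day 0. Iqgap1 encodes a scaffold for kinases of the Ras-ERK cascade, so the design asks how its loss alters gene expression in treated and untreated tissue. All day 6 mice, KO and WT, received the 4OHT, so the ligand cannot be told apart from the days. The labels call the sample mouse tissue and name no transgene, no cell type for the deletion and no age, and do not tell whether each replicate is its own mouse. P-values therefore measure the spread between these arrays, which may be technical.

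Keratins build filaments from pairs of a type I and a type II chain. The inner root sheath is the layered tube that encloses and shapes the growing hair. It arises from the hair matrix in each growth phase and is missing from the resting follicle. In human follicles K25, K27, K28 and K71 are made in all layers of the sheath, while K26, K72 and K73 are made in its cuticle, the layer that faces the hair shaft. In mice, mutations of Krt25, Krt27 or Krt71 give a wavy or curly coat. The sheath cells also fill with trichohyalin, which peptidylarginine deiminases modify and transglutaminases cross-link to the filaments.

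The 4 type I genes stand next to each other on chromosome 11 and the 3 type II genes in a second group on chromosome 15, where Krt74 lies between Krt71 and Krt72. All 7 are transcribed from the minus strand. The DNA just upstream shows how far genes with a shared pattern share sequence. Here are 250 bases before the annotated start of 5 of them, read 5′ to 3′ on the gene's strand, from RefSeq's GRCm38.p6. Capitals mark TATAAA, the TATA box core, and AGATAA, a core bound by GATA factors, on either strand. Krt25 (chr11:99322952-99323201), Krt27 (chr11:99351119-99351368) and Krt71 (chr15:101743098-101743347) are shown because their values differed most between the WT day 6 arrays, Krt73 (chr15:101802361-101802610) because it also holds AGATAA, and Krt28 (chr11:99374904-99375153) as a gene without it.
Krt25: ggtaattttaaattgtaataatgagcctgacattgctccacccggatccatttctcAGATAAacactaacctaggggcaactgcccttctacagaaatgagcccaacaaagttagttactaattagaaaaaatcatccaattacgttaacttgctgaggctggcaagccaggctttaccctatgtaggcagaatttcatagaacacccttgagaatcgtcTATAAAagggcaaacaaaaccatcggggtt
Krt27: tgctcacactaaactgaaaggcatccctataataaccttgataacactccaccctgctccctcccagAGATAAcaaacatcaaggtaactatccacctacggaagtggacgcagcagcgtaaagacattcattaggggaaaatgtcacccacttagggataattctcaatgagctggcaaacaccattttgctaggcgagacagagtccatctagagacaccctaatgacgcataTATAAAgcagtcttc
Krt71: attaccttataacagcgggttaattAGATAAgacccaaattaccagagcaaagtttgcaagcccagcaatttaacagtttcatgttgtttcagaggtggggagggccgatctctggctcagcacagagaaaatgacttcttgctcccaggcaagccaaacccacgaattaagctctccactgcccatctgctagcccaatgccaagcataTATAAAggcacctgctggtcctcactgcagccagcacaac
Krt73: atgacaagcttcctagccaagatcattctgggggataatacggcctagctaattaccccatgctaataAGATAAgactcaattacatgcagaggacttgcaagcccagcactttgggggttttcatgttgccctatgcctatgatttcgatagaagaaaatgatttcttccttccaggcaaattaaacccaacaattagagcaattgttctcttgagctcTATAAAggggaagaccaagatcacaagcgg
Krt28: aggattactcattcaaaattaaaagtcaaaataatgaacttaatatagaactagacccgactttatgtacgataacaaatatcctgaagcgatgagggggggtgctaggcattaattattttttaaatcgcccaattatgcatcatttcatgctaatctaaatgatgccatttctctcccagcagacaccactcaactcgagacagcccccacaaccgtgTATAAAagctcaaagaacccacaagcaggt

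These motifs were chosen with the sequences in view, so their counts are a description of these windows. On the gene's own strand, TATAAA lay within 40 bases before the start in 6 of the 7 genes, against 2.31% of 32851 mouse promoter windows. It lay at positions -30 to -25 in Krt25, Krt26, Krt28 and Krt73, at -40 to -35 in Krt71 and at -15 to -10 in Krt27. Krt72 held the letters only on the opposite strand, at -203 to -198. On either strand TATAAA was present in 7 of 7 windows, against 12.4% of all windows. AGATAA was present in 4 of 7, Krt25, Krt27, Krt71 and Krt73, against 9.99% of windows. TAATTA, a homeodomain core that reads the same on both strands, was present in Krt25, Krt28, Krt71 and Krt73, against 4.84% of windows. In Krt71 it shares 1 base with the match to the GATA core. A core bound by LEF and TCF factors, CTTTGA, was found in Krt28 alone, against 13.8% of windows. Aligned over their whole length, pairs of windows had 49.5 to 56.8% identical columns within a keratin type (9 pairs) and 46.9 to 53.5% between types (12 pairs). Windows of unrelated genes were not aligned, so these values do not tell whether the 7 share more sequence than other promoters. The longest run shared by a pair was the 14 bases TTGCAAGCCCAGCA of Krt71 and Krt73.

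Values are log2 RMA expression values, in which 1 unit is a doubling. Levels of different probe sets are not compared. The values of the whole table ran from 2.37 to 13.38, and array medians lay between 5.61 and 5.79. Iqgap1 itself read 8.58 and 8.67 in KO day 6, 10.11 and 10.59 in WT day 6, 9.02 and 8.99 in KO day 0 and 9.94 in WT day 0, lower in every KO array than in every WT array. Defining markers of skin were present in every array: the mean of 7 interfollicular epidermis markers lay between 11.14 and 12.08. WT day 6 replicate 1 (10.30) and the WT day 0 array (11.15) carried Xist signal, and the other 5 arrays did not (3.55 to 4.03). Xist is transcribed from an inactive X chromosome, so these WT arrays hold RNA of female tissue and no KO array does. Across genes, which are not independent replicates, the WT day 0 array correlated at 0.924 to 0.937 with the other arrays, and those among themselves at 0.910 to 0.992.

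The inner root sheath keratins were high in a single array, WT day 0. There all 7 read between 11.34 and 12.72, and in the 6 other arrays none exceeded 7.73. Of the genes made in all sheath layers, Krt25 read 5.04 and 4.73 in KO day 6, 7.53 and 4.78 in WT day 6, 4.67 and 4.84 in KO day 0 and 12.00 in WT day 0. Krt27 read 5.48 and 4.86 in KO day 6, 7.49 and 5.17 in WT day 6, 5.72 and 5.33 in KO day 0 and 12.38 in WT day 0. Krt71 read 5.15 and 5.26 in KO day 6, 7.73 and 5.25 in WT day 6, 5.40 and 5.24 in KO day 0 and 12.72 in WT day 0. These 3 shared an order of arrays: WT day 0 was highest, WT day 6 replicate 1 came next, and the 5 remaining arrays lay close together, with SDs of 0.14, 0.33 and 0.093. Krt28 read 4.06 and 3.73 in KO day 6, 3.64 and 3.58 in WT day 6, 3.91 and 4.05 in KO day 0 and 11.35 in WT day 0. Apart from WT day 0 these values lie in the range of probe sets with no transcript to detect (3.50 to 4.25), so the order of the other 6 arrays carries no information for Krt28.

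The genes of the sheath cuticle had the WT day 0 array high and no other array far from the rest. WT day 6 replicate 1 was next highest for Krt26 and Krt73 too, but only by 0.12 and 0.27. Krt26 read 4.14 and 3.85 in KO day 6, 4.27 and 3.81 in WT day 6, 3.92 and 3.98 in KO day 0 and 11.34 in WT day 0. Krt72 read 5.67 and 5.16 in KO day 6, 5.50 and 5.10 in WT day 6, 5.07 and 5.12 in KO day 0 and 12.07 in WT day 0. Krt73 read 5.49 and 5.29 in KO day 6, 5.76 and 5.09 in WT day 6, 4.59 and 4.81 in KO day 0 and 12.03 in WT day 0. In Krt73 the KO day 6 arrays lay above the KO day 0 arrays, and the WT day 6 arrays lay on either side of the KO day 6 ones. Probe sets with no transcript to detect (Xist in the 5 arrays without its signal, and 3 genes of the Y chromosome in the arrays with it) read 3.50 to 4.25. Krt26 was at or under the upper of these values in 5 arrays and Krt28 in 6, so in those arrays they were not distinguishable from no signal. The other 5 keratins lay above it in every array. That level comes from a few other probe sets, so it does not show that these 5 were detected in every array.

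**Figure D1:**
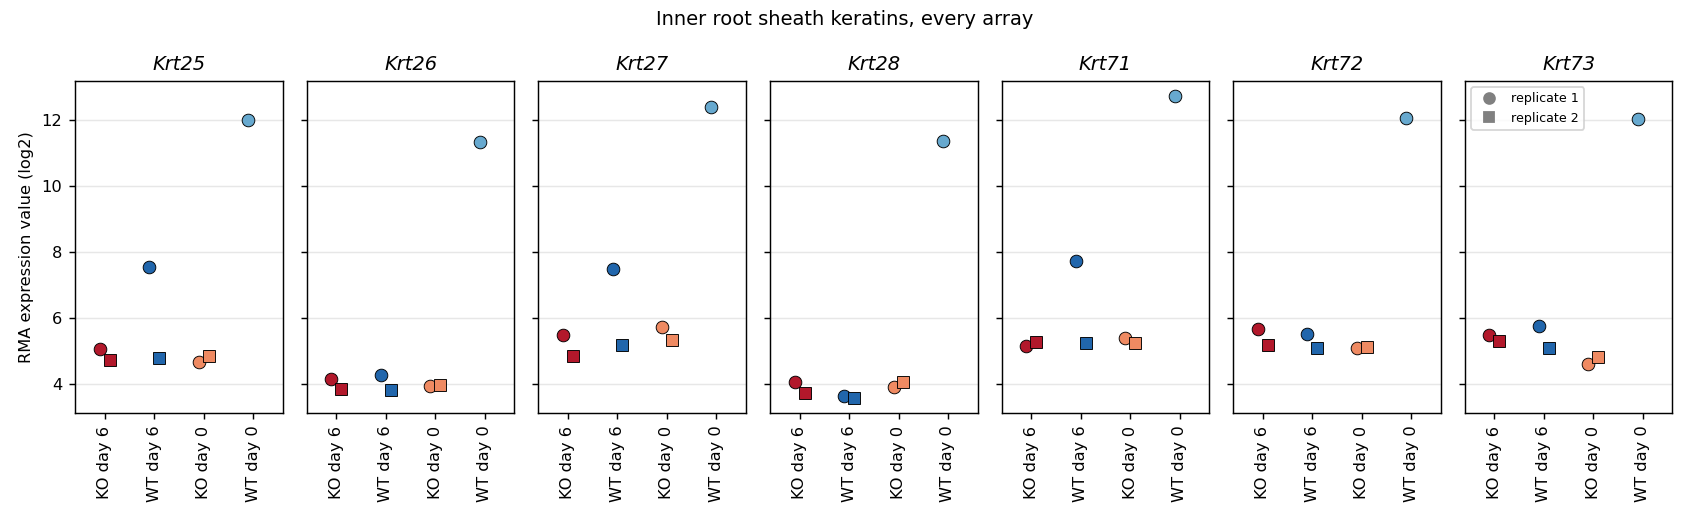
Log2 RMA expression value (vertical axis) of each of the 7 inner root sheath keratins in every array, by group (horizontal axis); circles are replicate 1 and squares replicate 2. The WT day 0 array lies between 11.34 and 12.72 for all 7, and WT day 6 replicate 1 stands above the other 5 arrays for Krt25, Krt27 and Krt71.

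The gap between the WT day 0 array and the next highest array was 4.47 for Krt25, 4.89 for Krt27, 4.99 for Krt71, 6.27 for Krt73, 6.41 for Krt72, 7.08 for Krt26 and 7.29 for Krt28. Of 19937 genes, 71 (0.356%) had that array above every other array by at least 4, and these include all 7 keratins. No gene of the 19937 had it below every other array by that much. The smaller gaps of Krt25, Krt27 and Krt71 come from WT day 6 replicate 1, which was next highest for them.

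At day 0, KO tissue had far less RNA of the 7 keratins than WT tissue. In a limma fit of the 4 group means, 7 of 7 were lower in KO, against 5.86% of all genes called lower. A call here is a p under 0.05 after adjusting by Benjamini-Hochberg across the 19937 genes. The median difference of the 7 was -7.33, against -0.09 over all genes tested. Among the genes of all layers the difference was -7.25 ± 0.94 (SE) for Krt25 (limma adjusted p = 0.00547), -6.85 ± 0.83 for Krt27 (0.00447), -7.37 ± 0.22 for Krt28 (4.89e-05) and -7.40 ± 0.84 for Krt71 (0.0038). Among the cuticle genes it was -7.39 ± 0.25 for Krt26 (limma adjusted p = 7.04e-05), -6.98 ± 0.28 for Krt72 (0.000102) and -7.33 ± 0.30 for Krt73 (0.000108). All 7 are among the 71 of 19937 genes (0.356%) with the WT day 0 array above every other array, KO day 0 included, by at least 4. RMA compresses low values, so these differences understate large folds where KO is near no signal, as for Krt26 and Krt28. In whole tissue, fewer sheath cells and less RNA per sheath cell cannot be told apart.

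WT day 0 is 1 array, so its error in this fit is borrowed from the other groups, and genotype cannot be told apart from whatever else sets that array apart, Xist signal included. With a term for the 2 arrays with Xist signal, 7 of 7 keratins passed as lower in KO at day 0, with -4.50 for Krt25 (limma adjusted p = 0.00498) and -6.67 for Krt73 (0.00199). That term fits every WT array exactly, so its p-values rest on the spread of the KO arrays, and it takes the difference between the WT day 6 arrays as the difference that goes with Xist at day 0. It does not separate genotype from the rest.

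In WT tissue the 7 keratins were lower at day 6 than at day 0. All 7 of 7 fell, against 3.61% of all genes called lower, with a median difference of -6.60 against 0.0035 over all genes. The fall was smallest where WT day 6 replicate 1 was high. It was -5.85 ± 0.94 for Krt25 (limma adjusted p = 0.0144), -6.05 ± 0.83 for Krt27 (0.00817) and -6.23 ± 0.84 for Krt71 (0.00791). Krt25 differed by -7.22 from day 0 without WT day 6 replicate 1 and by -4.47 without replicate 2. For Krt27 the values were -7.21 and -4.89, and for Krt71 -7.47 and -4.99. Such a fit leaves a single array on each WT day and rests its error on the KO arrays, so only the sizes are given. The fall was -7.74 ± 0.22 for Krt28 (limma adjusted p = 5.12e-05), -7.30 ± 0.25 for Krt26 (7.48e-05), -6.77 ± 0.28 for Krt72 (0.00011) and -6.60 ± 0.30 for Krt73 (0.000135). This comparison uses the same WT day 0 array as the one between genotypes at day 0, so the 2 results are not independent of each other.

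In KO tissue the keratins were low on both days, and 0 of 7 passed the threshold for day 6 against day 0 in the limma fit, against 16.3% of all genes called in either direction. Differences ran from -0.36 for Krt27 to 0.69 for Krt73, with a median of 0.05 against 0.10 over all genes. Krt73, the only one of the 7 with an unadjusted p under 0.05, differed by 0.69 ± 0.25 (limma adjusted p = 0.115), and the others had adjusted p from 0.421 to 0.931. Krt73 passed the threshold without WT day 6 replicate 1 or without replicate 2, with the same difference from the same KO arrays (limma adjusted p = 0.0335 in each). Those fits hold no spread between WT arrays. In the main fit the SE of the other keratins ran up to 0.77 (Krt25). Krt73 was not called there at 0.69 ± 0.25, so for Krt25 changes well above 0.77 could go undetected.

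The day change itself differed between genotypes for 6 of 7 keratins, higher in KO, against 1.76% of all genes called in that direction. The difference, day change in KO minus day change in WT, was 7.65 ± 0.28 for Krt28 (limma adjusted p = 0.000256), 7.35 ± 0.33 for Krt26 (0.000387), 7.29 ± 0.39 for Krt73 (0.000675) and 7.10 ± 0.36 for Krt72 (0.000545). It was 6.11 ± 1.09 for Krt71 (limma adjusted p = 0.0361) and 5.69 ± 1.07 for Krt27 (0.0426), and both calls were lost when any 1 of the 4 KO arrays was left out (adjusted p = 0.0794 to 0.121 for Krt71 and 0.0817 to 0.14 for Krt27). Trend and robust options, testing all probe sets and median centring each ended these 2 calls as well. Krt25, at 5.98 ± 1.21 (limma adjusted p = 0.0541), did not pass. Its difference was 7.35 without WT day 6 replicate 1 and 4.60 without replicate 2, in fits that leave a single array on each WT day. The WT day 0 array enters this contrast too.

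At day 6, 0 of 7 keratins passed the threshold between KO and WT in the limma fit, and 0 had an unadjusted p under 0.05. Over all genes 0% were called (1182 of 19937 at an unadjusted p under 0.05). Iqgap1 itself, at -1.73 ± 0.20, did not pass either (limma adjusted p = 0.503), so this comparison had little power to call differences. Krt71 differed by -1.29 ± 0.69, Krt25 by -1.27 ± 0.77 and Krt27 by -1.16 ± 0.68, with limma adjusted p from 0.817 to 0.827. For these 3 genes WT day 6 replicate 1 lay above both KO arrays, and replicate 2 lay inside the range of the KO day 6 arrays. Without WT day 6 replicate 2 the difference was -2.64 for Krt25 and -2.53 for Krt71, and without replicate 1 Krt25 turned to 0.11. Each of these fits leaves a single WT day 6 array and drops the spread between the WT replicates, so only the sizes are given. The other 4 keratins differed by -0.04 (Krt26 and Krt73), 0.12 (Krt72) and 0.28 (Krt28), with SE from 0.18 to 0.25.

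**Figure D2:**
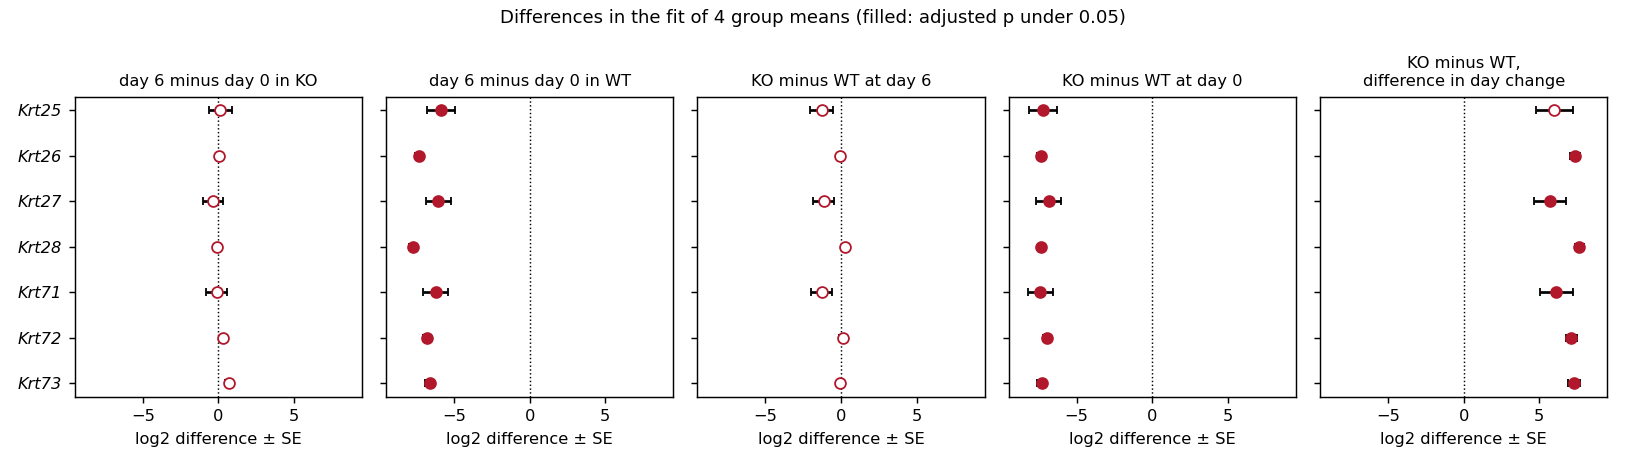
Log2 difference ± SE (horizontal axis) of each inner root sheath keratin in 5 comparisons of the limma fit of 4 group means; filled circles have an adjusted p under 0.05. The differences near -7 are those against the WT day 0 array, while day 6 against day 0 in KO and KO against WT at day 6 hold no filled circle.

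Averaged over genotypes or days, the 7 keratins had larger errors than in the fit of group means. The additive fit takes the day change as equal in KO and WT, which it was not for most of these keratins. That difference enters its errors, so a lack of calls here does not show a lack of change. For day 6 against day 0 over both genotypes, in the additive limma fit, 0 of 7 passed and 0 had an unadjusted p under 0.05, against 11.5% of all genes called. Differences ran from -3.15 to -2.23 with SE of 1.18 to 1.44 and adjusted p of 0.217 to 0.368. For KO against WT over both days 0 of 7 passed in the same fit (3 at an unadjusted p under 0.05), against 0% of all genes (3729 at an unadjusted p under 0.05). Differences ran from -3.73 for Krt71 to -2.72 for Krt72, with adjusted p of 0.241 to 0.33. Without the WT day 0 array the genotype difference lay between -1.29 (Krt71) and 0.28 (Krt28), and the day difference between -0.36 (Krt27) and 0.69 (Krt73).

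The split within WT day 6 fell between keratins. Replicate 1 minus replicate 2 was 2.75 for Krt25 (6.73-fold), 2.48 for Krt71 (5.57-fold) and 2.32 for Krt27 (4.99-fold). It was 0.66 for Krt73, 0.45 for Krt26, 0.41 for Krt72 and 0.06 for Krt28. A difference of at least 2 in that direction was seen in 61 of 19937 genes (0.306%) and in the opposite direction in 40 (0.201%). Of the 71 genes that were highest in WT day 0 by at least 4, 14 (19.7%) had it. These values come from 1 pair of arrays, and no test was made of them. The 3 genes code for keratins of all sheath layers, as named in human follicles. Krt28, the remaining gene of that class, did not show the split. It read 3.64 and 3.58, in the no-signal range in both arrays, where small differences could not show. Of the cuticle genes, Krt26 (4.27 and 3.81) lay in or near that range too, while Krt72 and Krt73 lay above it. Lying above that range does not show that Krt72 and Krt73 were detected in these arrays. Whether the split followed the sheath layers therefore cannot be told from these values. Replicate 1 also had lower means than replicate 2 for interfollicular epidermis markers (11.29 and 11.96), sebaceous gland markers (7.35 and 9.06), skeletal muscle markers (8.57 and 9.45), fibroblast markers (8.92 and 9.95) and markers of dividing cells (9.63 and 10.28), and a higher mean for adipocyte markers (7.34 and 6.75). Their part in the split was not tested.

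The partners of these keratins in sheath cells moved with them only in part. Of 8 measured partner genes, 5 were lower in KO at day 0 and 3 did not pass, with a median of -4.47. Over all genes 5.86% were called lower there. Tchh, which codes for trichohyalin, read 6.66 and 6.32 in KO day 6, 6.89 and 6.11 in WT day 6, 5.67 and 5.41 in KO day 0 and 12.02 in WT day 0. Padi3, a deiminase that acts on trichohyalin, read 7.33 and 7.19 in KO day 6, 7.28 and 7.76 in WT day 6, 5.79 and 5.89 in KO day 0 and 11.37 in WT day 0. Padi3 thus had the keratins' high array, yet in KO it was higher at day 6 than at day 0, by 1.42 ± 0.20 (limma adjusted p = 0.0049). Tgm3, the transglutaminase that cross-links trichohyalin and also acts in the epidermis, read 10.60 and 11.30 in KO day 6, 10.24 and 11.45 in WT day 6, 6.11 and 6.59 in KO day 0 and 11.10 in WT day 0. Tgm3 was therefore low only in KO day 0, with a difference of -4.75 between KO and WT there, a pattern unlike that of any of the 7 keratins. In WT, 4 of the 8 fell by day 6, against 3.61% of all genes called lower. In KO 3 of the 8 rose and 0 fell, where 7.24% of all genes were called higher and 9.07% lower. The difference in day change between genotypes passed for 5 of the 8, all higher in KO, against 1.76% of all genes called in that direction.

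Regulators of the hair matrix and sheath were mixed. Of 24 measured, 10 were lower in KO at day 0, 0 were higher and 14 did not pass, with a median of -0.78. Over all genes 5.86% were called lower and 8.53% higher there. In WT 10 fell by day 6 (3.61% of all genes did). In KO 4 rose and 2 fell, and the 2 that fell are a share near that of all genes. Msx2, a homeodomain factor of the hair matrix, read 6.00 and 6.28 in KO day 6, 5.96 and 5.62 in WT day 6, 5.74 and 5.91 in KO day 0 and 10.02 in WT day 0. Hoxc13, a homeodomain factor that drives hair keratin genes, read 6.43 and 5.50 in KO day 6, 7.90 and 5.63 in WT day 6, 6.60 and 6.19 in KO day 0 and 10.04 in WT day 0. Hoxc13 shared the order of arrays seen for Krt25, Krt27 and Krt71, with WT day 6 replicate 1 next to WT day 0. Gata3, a factor that mouse sheath cells need, did not: it read 9.29 and 9.82 in KO day 6, 8.66 and 9.32 in WT day 6, 10.45 and 10.72 in KO day 0 and 10.04 in WT day 0.

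Several lists of neighbouring follicle parts had the same high array. All 12 measured hair shaft keratins were lower in KO at day 0 (median -5.04), fell in WT by day 6 (median -4.74) and were highest in the WT day 0 array. Over all genes, 5.86% were called lower in KO at day 0 and 3.61% lower at day 6 in WT. For each of the 12 hair shaft keratins WT day 6 replicate 1 also lay above replicate 2, by 0.15 to 1.83. Of 12 melanocyte pigment genes, 10 were lower in KO at day 0 and 12 had their highest value in the WT day 0 array. Of 11 hair shaft and desmosome genes, 8 were lower in KO at day 0. The calls in lists of other follicle parts were mixed: of 7 companion layer and medulla keratins 1 was lower and 0 higher, of 12 dermal papilla genes 3 were lower and 3 higher, and of 13 outer root sheath and stem cell genes 5 were higher in KO and 0 lower, where 8.53% of all genes were called higher. The WT day 0 array was nonetheless the highest for 7 of the 12 dermal papilla genes and 16 of the 24 regulators. It was the highest for 1 of the 7 companion layer and medulla keratins and 3 of the 13 outer root sheath and stem cell genes. The share of all genes with that array highest was not counted, so these counts of highest arrays only describe the lists. Markers of dividing cells averaged 7.82 and 8.12 in KO day 0 and 9.77 in WT day 0. In day 6 arrays they averaged 10.12 and 10.22 in KO and 9.63 and 10.28 in WT, where the keratins were low. The part of these cell types in the keratin result was not tested.

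**Figure D3:**
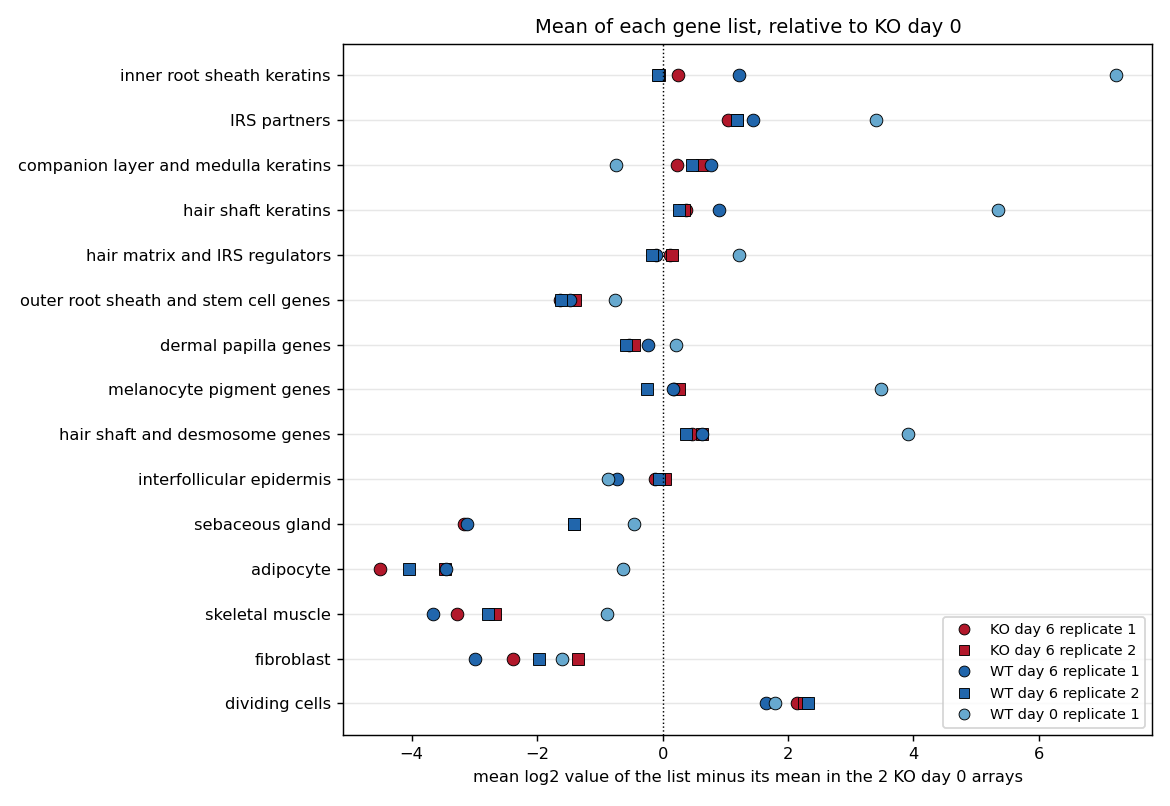
Mean log2 value of the inner root sheath keratins, of 8 lists of follicle genes and of 6 lists of cell type markers in 5 arrays, minus the mean of the same list in the 2 KO day 0 arrays (horizontal axis, dotted line at 0). The WT day 0 array stands to the right for the keratins, their partners (IRS in the plot), hair shaft keratins, regulators, dermal papilla genes, melanocyte genes, hair shaft and desmosome genes and dividing cells, and to the left for the other 7 lists.

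The genes whose values over the 7 arrays were most like the mean of the 7 keratins were hair shaft genes. Likeness was measured as the root-mean-square difference of values centred on each gene's own mean. The closest was Krtap13-1, a hair keratin-associated protein, at 0.124, and next came the hair shaft keratin Krt31 at 0.129. Among the 10 closest, 7 were keratin-associated protein genes, 2 were hair shaft keratins (Krt31 and Krt86) and 1 was Gprc5d, a receptor gene expressed in hair-forming cells, at 0.284. The 7 keratins themselves lay 0.30 (Krt73) to 0.54 (Krt28) from their own mean, farther than these 10. In each of the 10, WT day 6 replicate 1 was next highest after WT day 0, as for Krt25, Krt27 and Krt71. Genes of the keratin-associated protein family have similar copies that can share probes. Krt31 read 4.87 and 4.86 in KO day 6, 5.72 and 4.69 in WT day 6, 4.57 and 4.63 in KO day 0 and 11.88 in WT day 0.

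Keratin genes at the borders of the 2 groups did not share the difference at day 0. Of 54 annotated keratins of chromosomes 11 and 15, 52 were measured, and 9 of the 45 that are no inner root sheath keratins of the 7 had the WT day 0 array above every other by at least 4. Krt24 and Krt10 flank Krt25 to Krt28. Their KO mean at day 0 was above WT by 1.46 and 0.72, where the 4 sheath keratins between them had differences from -7.39 to -6.85. Krt5 and Krt2 flank Krt71 to Krt73, with differences of 0.48 and -0.02. Krt74, which RefSeq lists as a transcribed pseudogene in this mouse genome and which codes for a keratin of the sheath's Huxley layer in humans, read 4.46 and 4.20 in KO day 6, 4.33 and 4.20 in WT day 6, 4.20 and 3.96 in KO day 0 and 5.38 in WT day 0. It had the same highest array as its neighbours Krt71 and Krt72, with a gap of 0.92 to the next.

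**Figure D4:**
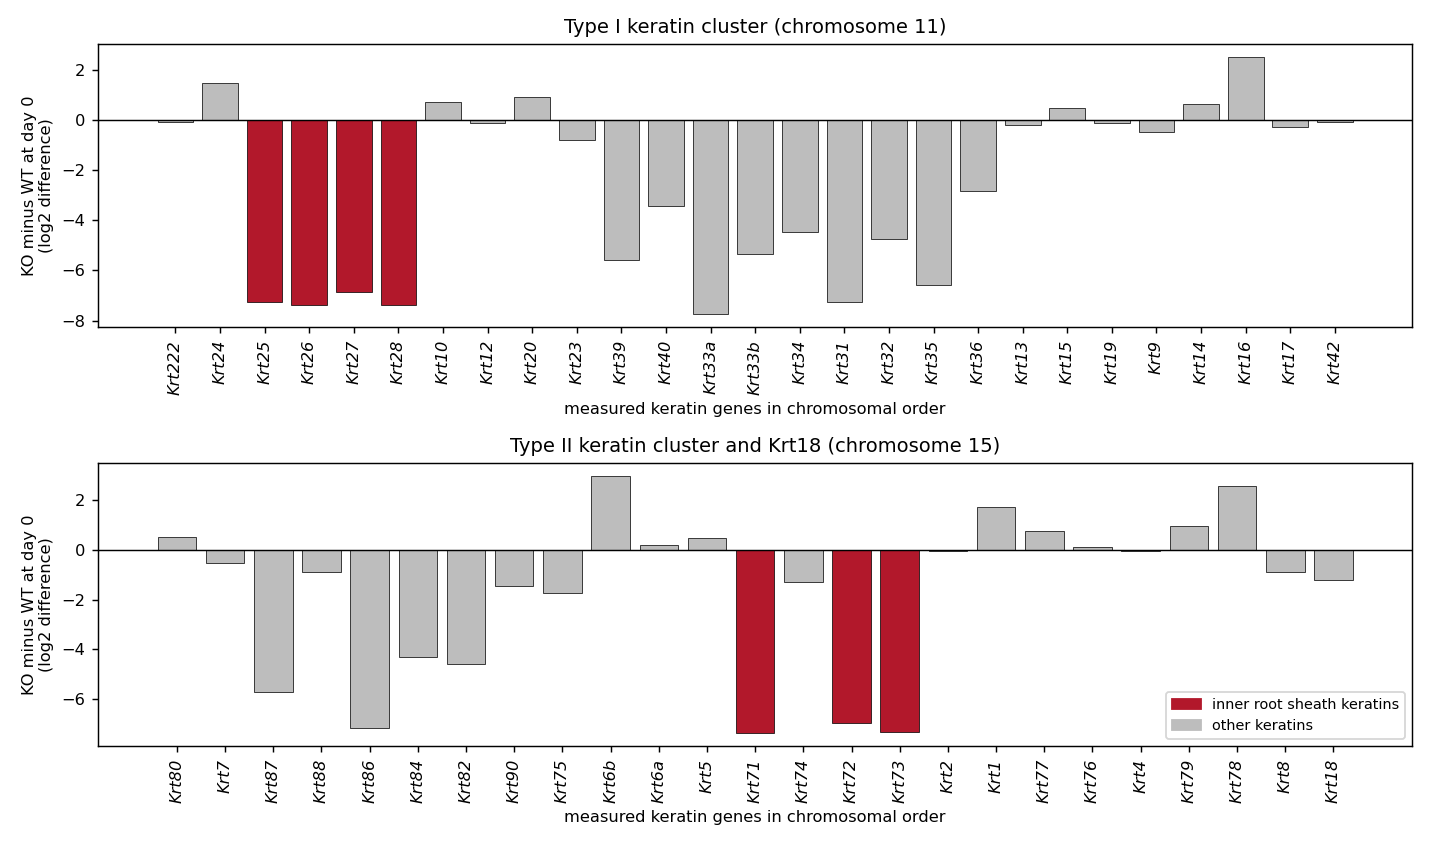
Mean log2 value of the 2 KO day 0 arrays minus the WT day 0 array (bars, vertical axis) for the measured keratins of chromosomes 11 and 15 in chromosomal order (horizontal axis), with the inner root sheath keratins in red. The red bars reach from -6.85 to -7.40, next to Krt24 at 1.46, Krt10 at 0.72, Krt5 at 0.48 and Krt2 at -0.02, and hair shaft keratins form the other deep bars.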

How the data were processed

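The deposited values are log2 expression values that the authors computed by RMA, which the submitters' processing notes list with R 2.11.1. The log2 scale was read from their range. RMA subtracts background, normalizes arrays by quantiles and summarizes probes, which compresses low values. Per the labels' protocols, RNA was extracted from macerated tissue, amplified and biotin-labelled. No genome build and no array batch is given in the sources used here. The table had 34760 probe sets, 21640 of them with 1 gene symbol, for 19937 genes. Gene identifiers tied 19855 of the genes to RefSeq's GRCm38.p6 table, and 0 symbols changed.

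Two-sided tests used lmFit and eBayes of limma 3.58.1 (R 4.3.3). P-values were adjusted by Benjamini-Hochberg across 19937 genes, and the threshold was 0.05. Comparisons over both days or genotypes used an additive fit (4 residual degrees of freedom), and the others used a fit of group means with 3, in which the single WT day 0 array takes its error from the remaining groups. The number of arrays limits the precision. The fits were first tested on simulated data, where 200 genes had known changes. The keratins, the gene lists and the rule for named genes (the 7 keratins, the 10 genes most like them, and from each list up to 4 genes with the smallest p for day over both genotypes and the 4 with the largest range) were chosen with earlier results of these data known. The rule gives more genes than the text names, and the choice among them followed no stated rule. Gata3 is named as one of the smallest p, and the flanking keratins were added after their values were seen. Groups and replicate numbers came from sample titles. Same-numbered arrays did not pair: deviations of replicate 1 from the group mean correlated at 0.23, 0.086 and 0.037 between groups. Alternatives were the block on replicate number, leaving out each array, eBayes with trend and robust options, all probe sets, the mean of a gene's probe sets, a filter on genes with a mean under 5, median centring, and the arrays with Xist signal left out or given a term.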

Additional observations from a re-analysis of the deposited data

Results flagged for a closer look

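The change from day 0 to day 6 differed between genotypes, by the interaction contrast of the limma fit of 4 group means with Benjamini-Hochberg adjustment, for 6 of the 7 inner root sheath keratins, against 1.76% of all genes called in that direction. The difference, day change in KO minus day change in WT on the log2 scale, was 7.65 for Krt28, 7.35 for Krt26, 7.29 for Krt73, 7.10 for Krt72, 6.11 for Krt71 and 5.69 for Krt27. The calls of Krt71 and Krt27 were each lost in 7 of 13 other settings. Krt25 had 5.98 and an adjusted p of 0.0541. All these contrasts rest on the single WT day 0 array, which is also 1 of the 2 arrays with Xist signal.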

How the results depend on the processing

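Over 15 other settings, 7 of which left out 1 array, the keratins called lower numbered 6 to 7 of 7 for KO against WT at day 0 and 6 to 7 for day 6 against day 0 in WT, where Krt25 lost its call with trend and robust options (limma adjusted p = 0.062). The filter on dim genes removed Krt28. The interaction held 4 to 7 calls. With the replicate block the calls numbered 7, 7 and 6 for these 3 comparisons, and it changed no count of keratins elsewhere. Comparisons with WT day 0 could not be fitted without that array. The day change in KO had 1 call (Krt73) without the 2 arrays with Xist signal and with a term for them, and 0 to 1 leaving out 1 array; the day change over both genotypes had 1 without the 2 arrays; KO against WT at day 6 had 0 to 2. In the fit of group means, leaving out a WT day 6 array removes the spread between WT arrays, so calls gained there rest on the KO arrays. Signs turned for uncalled keratins. For day over both genotypes, leaving out 1 array gave -2.94 to 0.13 for Krt25, -3.70 to 0.048 for Krt26, -3.35 to 0.32 for Krt72 and -3.01 to 0.69 for Krt73, and without the 2 arrays 0.13, 0.048, 0.32 and 0.69. For KO against WT over both days it gave -3.63 to 0.28 for Krt28 and -3.56 to 0.12 for Krt72, and without the 2 arrays 0.11 (Krt25), 0.19 (Krt26), 0.31 (Krt28), 0.32 (Krt72) and 0.29 (Krt73). For day in KO it gave -0.024 to 0.29 (Krt25), -0.10 to 0.19 (Krt26) and -0.25 to 0.077 (Krt28), and median centring gave -0.0046 for Krt26. For KO against WT at day 6 it gave -2.64 to 0.11 (Krt25), -0.27 to 0.19 (Krt26), -0.14 to 0.37 (Krt72) and -0.37 to 0.29 (Krt73), and both settings on Xist gave 0.11, 0.19 and 0.29 for Krt25, Krt26 and Krt73. The cause was not tested. Over all genes, calls ranged from 727 to 4027 for day over both genotypes (2286 as reported), 0 to 836 for genotype over both days (0), 1381 to 4027 for day in KO (3251), 1040 to 2209 for day in WT (1418), 0 to 43 for genotype at day 6 (0), 682 to 4328 for genotype at day 0 (2869) and 143 to 1038 for the interaction (619).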
